A study of Mus musculus with 18 samples.

Results

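The nuclear lamina and inner nuclear membrane genes examined here are 8 in number: Lmnb1, Lmnb2, Lmna, Lbr, Tmpo, Emd, Sun1 and Sun2. They were chosen by name for their place in the nuclear envelope, with no threshold on a value, out of 56748 gene IDs in the count table, and all 8 were found and tested. Levels of these genes over all 6 groups were known when the list was drawn up. Their values are therefore a description, and an adjusted p-value for a member says only how a difference compares with the spread between libraries.

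Messenger RNA was sequenced from RN2, a mouse acute myeloid leukemia line that carries MLL-AF9 and NrasG12D and that the labels otherwise call wild type. Every group was cells of this single line that carried a lentiviral construct and were sorted on day 5 after transduction. The first construct was nCas9, a Cas9 that cuts a single DNA strand and carries no deaminase. A catalytic mutant had the base editor with its evoA1 deaminase made inactive, and intact BE had the editor with active evoA1. The last, seBE, is an editor whose activity depends on an added drug. Intact BE and seBE cells had vehicle or 1 nM rapamycin for 24 h, and the labels also list vehicle for 24 h for nCas9 and the mutant, although the protocol names drug and vehicle for intact BE and seBE alone. Each of the 6 groups had 3 libraries, called biological replicates, and nothing in the labels says whether they came from separate transductions. The comparison was made to look for changes in expression that go with the toxicity of base editors. Whether cells of a group came from 1 clone is not given, and rapamycin itself acts on the mTORC1 kinase complex in any cell.

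The lamina is a meshwork of intermediate filament proteins under the inner nuclear membrane. B-type lamins are the products of Lmnb1 and Lmnb2, and Lmna encodes the A-type lamins A and C. Membrane proteins such as the lamin B receptor, LAP2 (from Tmpo) and emerin (from Emd) tie the filaments to chromatin, and SUN proteins link them through nesprins to the cytoskeleton as the LINC complex. Blood cells are known for little A-type lamin, and granulocytes need the lamin B receptor for their lobed nucleus.

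Libraries held 13835979 to 23284932 counts. All 7 listed markers of the line were present in every library. Their means over 18 libraries were 1192 CPM for Myb, 386 for Ptprc, 295 for Hoxa9, 194 for Spi1, 154 for Itgam, 136 for Kit and 52.6 for Meis1 (CPM, counts scaled to a common library size with TMM factors). Defining markers of lymphocytes (Cd3e, Cd3g, Ms4a1) were at 0 in all libraries, as was the fibroblast gene Col1a2. Of 12 markers of other cell types, 11 had a mean of 0.571 CPM or less, that of the erythroid gene Klf1, and Pdgfrb ran from 11.4 to 26.7 CPM. The second principal component of log2 CPM placed nCas9 library 2 at 62.98 and all others between -24.54 and 21.48. Library 3 of the catalytic mutant had the nuclear RNA Malat1 at 313.7 CPM, against 1061 to 1819 elsewhere. The mitochondrially encoded share of counts was 5.10% ± 0.585 (SD, n = 3) in nCas9, 4.53% ± 0.880 in the mutant, 3.58% ± 0.889 in seBE under rapamycin and 3.19% ± 0.797 under vehicle. It was 2.11% ± 0.132 in intact BE under rapamycin and 1.88% ± 0.127 under vehicle. The slope of log2 level on transcript length was 0.0589 ± 0.0254 per doubling in intact BE under vehicle and -0.0738 ± 0.0238 in nCas9. The part of these shifts in the members' differences was tested only for length and GC content, by removing that trend, and by leaving out each library in turn.

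Per length of the principal transcript, the members fell into a steep order. Lbr stood highest at 107 CPM per kilobase over all libraries, then Tmpo at 104 and Lmnb1 at 92.9. Sun2 followed at 54.2, Emd at 37.8, Lmnb2 at 28.0 and Sun1 at 14.4 CPM per kilobase. Lmna stood lowest, at 2.07 CPM per kilobase, and Lmnb1 exceeded it per length in every library, by 24.9 to 92.8 times. From Lbr down to Lmnb2, each gene's range over the libraries overlapped that of the next, while Sun1 and Lmna each lay apart from their neighbours. Counted over the union of annotated exons instead, Lmnb1 led at 89.1 CPM per kilobase and Tmpo stood at 35.5, as the annotation gives Tmpo alternative exons outside its principal transcript. Lmna was last on either scale. Counts are per gene, so lamins A and C, and the LAP2 isoforms, are each pooled.

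**Figure D1:**
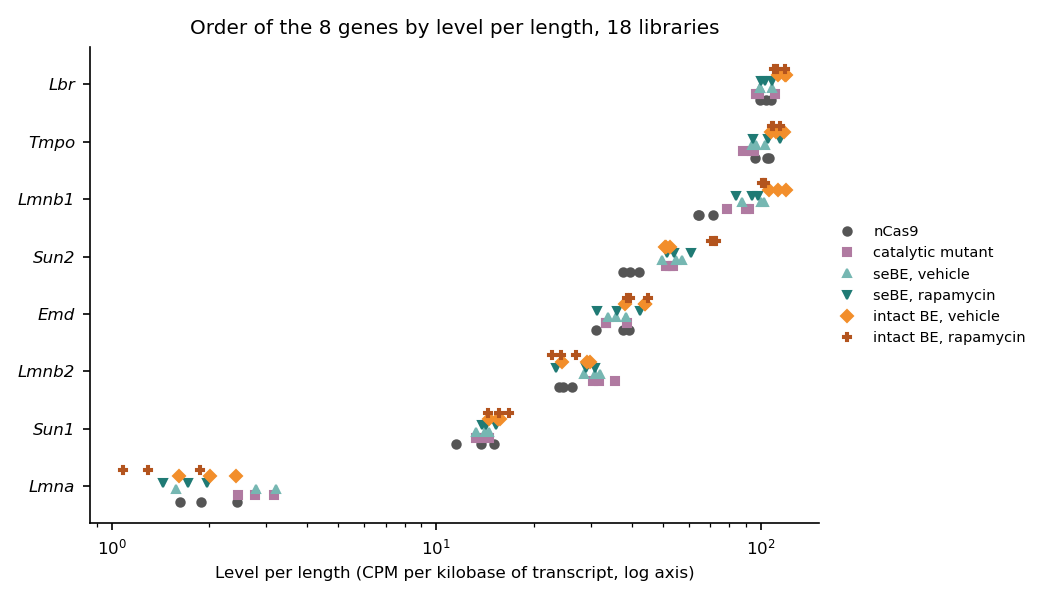
Level per length of the 8 genes, in CPM per kilobase of principal transcript on a log axis, with 1 point per library and a symbol and colour for each of the 6 groups. Lbr, Tmpo and Lmnb1 lie near 100 CPM per kilobase and Lmna near 2.07.

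Lmnb1, the main B-type lamin transcript of these cells, differed most clearly between constructs. It stood at 182, 184 and 203 CPM in the 3 nCas9 libraries and at 256, 224 and 262 CPM in the catalytic mutant. In seBE it was at 290, 249 and 285 CPM under vehicle and at 278, 239 and 267 CPM under rapamycin. In intact BE it was at 302, 321 and 341 CPM under vehicle and at 286, 292 and 291 CPM under rapamycin. All 3 nCas9 libraries lay below the other 15, and all 3 intact BE libraries under vehicle lay above the rest. Between these ends the neighbours in the order (mutant, seBE under rapamycin, seBE under vehicle, intact BE under rapamycin) overlapped.

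Against nCas9, Lmnb1 was higher by log2 0.76 ± 0.0775 (SE) in intact BE (edgeR quasi-likelihood test, adjusted p = 8.08e-08), or 1.69-fold. The same difference was 0.54 ± 0.0774 in seBE under vehicle (adjusted p = 9.5e-05) and 0.38 ± 0.0775 in the catalytic mutant (adjusted p = 0.00382). These comparisons share the nCas9 libraries, so they are not independent of each other. Intact BE was also above the catalytic mutant, by log2 0.38 ± 0.0771 (adjusted p = 0.000656). Without nCas9 library 2 the differences from nCas9 were 0.74, 0.52 and 0.37, each past the threshold, and without mutant library 3 the mutant's was 0.34 (adjusted p = 0.019). Under rapamycin the 3 intact BE libraries lay below those under vehicle without overlap, but the difference of log2 -0.15 ± 0.0767 missed the threshold (adjusted p = 0.386). In seBE it was -0.07 ± 0.0768 (adjusted p = 0.999), with overlap. The mitochondrial share of counts ran through the groups in the reverse order of the Lmnb1 means. The stem cell factor receptor gene Kit was higher in intact BE against nCas9, by 0.51 ± 0.0787 (adjusted p = 1.67e-05). Kit was not called against nCas9 in the mutant (0.24 ± 0.079) or seBE (0.19 ± 0.0789). Unlike Lmnb1, it was higher under rapamycin in intact BE (0.31 ± 0.0778, adjusted p = 0.0176). The part of the mitochondrial share and of Kit in the Lmnb1 levels was not tested.

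**Figure D2:**
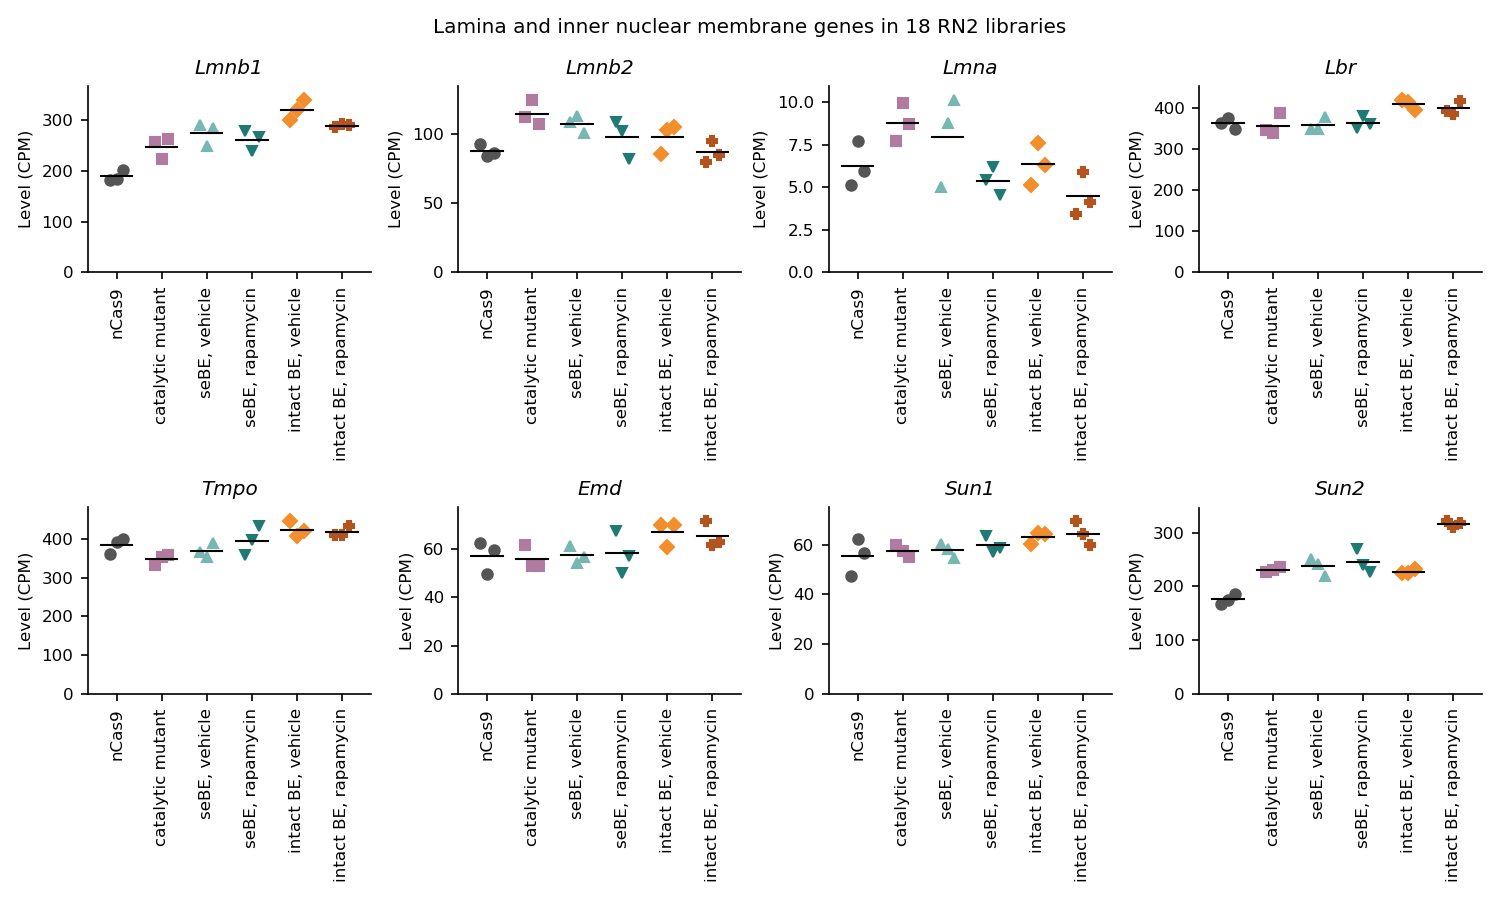
Level in CPM of each of the 8 genes, with 1 point per library, groups along the horizontal axis and a bar at each group mean. Lmnb1 is lowest in nCas9 (mean 189 CPM) and highest in intact BE under vehicle (mean 321 CPM), and Sun2 stands apart in intact BE under rapamycin (mean 317 CPM).

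Lmnb2, the other B-type lamin, followed Lmnb1 only in part. Its highest group was the catalytic mutant, at 112, 125 and 108 CPM, and nCas9 lay below at 92.8, 84.2 and 86.8 CPM without overlap. Intact BE under vehicle lay between, at 86.0, 103 and 106 CPM, overlapping nCas9. Vehicle libraries of seBE, at 109, 113 and 101 CPM, lay above nCas9 without overlap. The mutant exceeded nCas9 by log2 0.39 ± 0.0945 (adjusted p = 0.0137). Without mutant library 3 the value was 0.44 (adjusted p = 0.0161). The call ended without nCas9 library 2 (adjusted p = 0.0832), without mutant library 2 (adjusted p = 0.0729) and with the length and GC trend removed, where the value was 0.20 (adjusted p = 0.142). In intact BE the difference from nCas9 was 0.16 ± 0.0946 (adjusted p = 0.245), and with the trend removed 0.21 (adjusted p = 0.0292). In seBE under vehicle it was 0.29 ± 0.0945 and missed the threshold (adjusted p = 0.0668). That difference passed with no filter (adjusted p = 0.025), a replicate block (0.0353), thinning to equal depth (0.0467) and the compared libraries alone (0.0348). Without nCas9 library 2 it was 0.27 (adjusted p = 0.228).

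The unequal behaviour of the B-type lamins showed in their ratio per length within each library. Lmnb1 per Lmnb2 was 2.68 ± 0.232 (SD, n = 3) in nCas9 and 2.69 ± 0.420 in the catalytic mutant. The ratio was 3.18 ± 0.400 in seBE under vehicle and 3.36 ± 0.579 under rapamycin. It was 4.07 ± 0.255 in intact BE under vehicle and 4.16 ± 0.323 under rapamycin. The lowest intact BE library under either treatment, at 3.80, lay above the highest nCas9 library, at 2.90, and above the highest mutant library, at 3.03. It also lay above the highest seBE library under vehicle, at 3.50. Under rapamycin seBE ran from 2.90 to 4.01 and overlapped intact BE.

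Lmna, the A-type lamin gene, was scarce and imprecise, with 73 to 209 reads per library, both ends of that range in seBE under vehicle. Vehicle libraries of seBE stood at 4.99, 8.77 and 10.1 CPM and those under rapamycin at 5.43, 6.20 and 4.54 CPM. In intact BE they stood at 5.10, 7.62 and 6.32 CPM under vehicle and 3.42, 5.91 and 4.10 CPM under rapamycin. The groups overlapped in both editors, and the drug differences of log2 -0.57 ± 0.256 in seBE and -0.50 ± 0.262 in intact BE missed the threshold (adjusted p = 0.999 and 0.386). Its SE of 0.257 for the mutant against nCas9 compares with 0.068 to 0.106 for the other members, and the difference there was 0.50 (adjusted p = 0.291).

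Lbr encodes a membrane protein that binds B-type lamins and heterochromatin and is also a sterol reductase. It was among the steadiest members, from 339 CPM in mutant library 2 to 421 CPM in intact BE library 1 under vehicle, a ratio of 1.15 between the highest and lowest group means. Intact BE under vehicle read 421, 417 and 397 CPM, and the catalytic mutant 347, 339 and 388 CPM. The groups did not overlap, and the difference was log2 0.20 ± 0.068 (adjusted p = 0.0316). It came to 0.00074 with the length and GC trend removed (adjusted p = 0.996). The call also ended without either of intact BE libraries 1 and 2 or mutant libraries 1 and 2 (adjusted p = 0.109 to 0.171), with no filter on low counts (0.0676) and in a fit of the compared libraries alone (0.0615). Against nCas9 the difference was 0.18 ± 0.0679 (adjusted p = 0.0558).

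Tmpo encodes LAP2, a LEM domain protein that binds lamins and the chromatin protein BAF. In intact BE under vehicle it read 447, 407 and 421 CPM, and in the catalytic mutant 332, 355 and 359 CPM, with nCas9 between at 361, 393 and 401 CPM. Intact BE and the mutant did not overlap and differed by log2 0.29 ± 0.0718 (adjusted p = 0.00403). With the length and GC trend removed this was 0.15 (adjusted p = 0.0997). Among the line's markers, Ptprc (0.35 ± 0.085) and Kit (0.27 ± 0.0786) were also higher and Spi1 lower (-0.34 ± 0.0887) in intact BE than in the mutant, and their part was not tested. For Tmpo neither group passed against nCas9, at 0.14 ± 0.0717 for intact BE and -0.14 ± 0.0718 for the mutant. Emd, another LEM domain gene, ran from 49.6 to 71.7 CPM. Intact BE under vehicle read 70.1, 61.1 and 70.1 CPM, and its lowest library lay within the range of every other vehicle group. Its differences were log2 0.23 ± 0.105 for intact BE against nCas9 (adjusted p = 0.122) and 0.26 ± 0.106 against the mutant (adjusted p = 0.0772). Emd has the shortest transcript of the 8, 1595 bases, and with the trend removed these values were 0.35 (adjusted p = 0.00855) and 0.40 (adjusted p = 0.00724).

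Sun1 and Sun2 encode the SUN proteins of the inner membrane, and they behaved differently. Sun1 stayed between 47.4 and 69.5 CPM in all libraries and passed in none of the 9 comparisons. Sun2 read 166, 174 and 187 CPM in nCas9, below all 15 other libraries. The catalytic mutant was at 226, 232 and 236 CPM, seBE under vehicle at 252, 241 and 219 CPM, and intact BE under vehicle at 224, 226 and 232 CPM. The mutant, seBE and intact BE overlapped one another under vehicle. Intact BE under rapamycin stood at 322, 311 and 319 CPM, above all other libraries, while seBE under rapamycin, at 269, 239 and 227 CPM, overlapped its vehicle group.

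Against nCas9, Sun2 was higher by log2 0.37 ± 0.0721 in intact BE (adjusted p = 0.000257), 0.43 ± 0.0721 in seBE (adjusted p = 0.000488) and 0.40 ± 0.0722 in the catalytic mutant (adjusted p = 0.00203). All 3 differences passed without nCas9 library 2, and the mutant's also without mutant library 3. With the length and GC trend removed the mutant's was 0.21 (adjusted p = 0.0575). Under rapamycin against vehicle, Sun2 was higher in intact BE by log2 0.48 ± 0.0717 (adjusted p = 3.67e-05), or 1.39-fold. In seBE the drug difference was 0.05 ± 0.0716 (adjusted p = 0.999). Under rapamycin seBE was below intact BE by log2 -0.37 ± 0.0714 (adjusted p = 0.00148). The difference between the drug effects was -0.43 ± 0.101 and missed the threshold (adjusted p = 0.0655). It passed by DESeq2 (adjusted p = 0.00402), with no filter (0.0322) and with the trend removed (0.0135), and leaving out each library in turn gave adjusted p from 0.0114 to 0.272. The integrin gene Itgam, a myeloid marker, moved with Sun2 under the drug but not against nCas9. It was higher under rapamycin in intact BE by 0.58 ± 0.0795 (adjusted p = 1.05e-05). Its difference between the drug effects was -0.58 ± 0.112 (adjusted p = 0.0127). Against nCas9 Itgam was not called in intact BE (-0.16 ± 0.0797), the mutant (-0.10 ± 0.0798) or seBE (-0.0028 ± 0.0796). The myeloid factor gene Spi1 was higher against nCas9 in the mutant (0.45 ± 0.0888) and in seBE (0.34 ± 0.0887), as Sun2 was. Spi1 was not called in intact BE against nCas9 (0.11 ± 0.0888, adjusted p = 0.413), where Sun2 was higher. Nor was it under rapamycin in intact BE (0.09 ± 0.0885, adjusted p = 0.758). Kit, like Sun2, was higher in intact BE against nCas9 (0.51 ± 0.0787) and under rapamycin in intact BE (0.31 ± 0.0778). It was also lower in seBE than in intact BE under rapamycin (-0.46 ± 0.0777). Unlike Sun2, Kit was not called against nCas9 in the mutant (0.24 ± 0.079) or seBE (0.19 ± 0.0789). The part of these markers in the Sun2 levels was not tested. Sun2 per Sun1, per length, was 3.38 ± 0.111 in intact BE under vehicle and 4.62 ± 0.340 under rapamycin, against 3.85 ± 0.0915 and 3.84 ± 0.193 in seBE.

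Upstream sequences from RefSeq (GRCm38.p6, an older build than the authors' GRCm39) were used for 7 of the 8 genes at 11 start sites. None was used for Lmnb1. Shown are the 250 bases before the start, 5′ to 3′ on the gene's strand, of Sun2, the member that differed with rapamycin, and of Lbr and Tmpo, whose levels had the highest correlation of the 28 pairs of members over 18 libraries (Pearson r = 0.73, Spearman rho = 0.77). Within groups theirs was r = 0.39, below Sun1 with Sun2 and Lmnb1 with Emd (each 0.48) and Lmnb2 with Sun2 (0.41). Of the 2 Tmpo starts, the one shown was chosen with the matches known. Capitals mark matches on either strand to CCAAT or to the cell cycle element CHR, TTTGAA. Sun2 lies at chr15:79742537-79742786, Lbr at chr1:181842402-181842651 and this Tmpo start at chr10:91171620-91171869, all on the minus strand.
Sun2: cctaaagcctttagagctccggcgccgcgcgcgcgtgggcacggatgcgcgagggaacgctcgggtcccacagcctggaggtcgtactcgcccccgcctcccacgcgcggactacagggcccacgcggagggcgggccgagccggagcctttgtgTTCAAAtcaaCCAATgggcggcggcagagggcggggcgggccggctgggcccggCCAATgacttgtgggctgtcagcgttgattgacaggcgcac
Lbr: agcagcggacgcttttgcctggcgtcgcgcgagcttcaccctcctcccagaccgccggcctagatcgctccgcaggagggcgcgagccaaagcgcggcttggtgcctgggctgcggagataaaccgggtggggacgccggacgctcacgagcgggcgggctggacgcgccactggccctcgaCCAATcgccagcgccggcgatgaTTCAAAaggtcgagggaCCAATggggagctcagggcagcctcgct
Tmpo: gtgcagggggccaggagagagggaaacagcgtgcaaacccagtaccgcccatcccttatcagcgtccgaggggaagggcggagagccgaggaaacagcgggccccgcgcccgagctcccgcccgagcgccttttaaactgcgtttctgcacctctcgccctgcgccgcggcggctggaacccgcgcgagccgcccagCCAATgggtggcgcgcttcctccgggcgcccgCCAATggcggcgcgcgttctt

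GC content was 70.8% for Sun2, 69.6% for Lbr and 70.8% for Tmpo, with 31, 31 and 32 CpG, against medians of 52.4% and 6 over 32851 windows. The Tmpo start not shown had 46.0% GC, 16 CpG and no match to CCAAT. Each window shown held 2 matches to CCAAT, which 33.85% of all windows contain at least once, and 7 of the members' 11 windows held a match. Sun2 and Lbr each also held 1 match to TTTGAA, as did the Tmpo start not shown. That motif was found in 16.0% of all windows and in 3 of the 11. Of 2 further motifs searched, TTTCCCGC, an E2F site, was in 0.895% of all windows and only at the other Tmpo start, and the E-box CACGTG, in 6.02%, was in none of the 11. Matches to different motifs did not overlap in the 11 windows. A match is a string of letters and shows no binding.

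Counted over the constructs, members were called at rates to be read beside all 14985 genes tested. Against nCas9, intact BE had 2 of 8 members higher and 0 lower (Lmnb1 and Sun2), where 13.1% of all genes were higher and 9.83% lower, with a median log2 of 0.18 for the members and -0.04 for all genes. The catalytic mutant had 3 higher and 0 lower (Lmnb1, Lmnb2 and Sun2), against 2.24% and 2.06% of all genes, with medians of 0.22 and 0.00. seBE had 2 higher and 0 lower (Lmnb1 and Sun2), against 2.64% and 1.93%, with medians of 0.17 and -0.01. Intact BE against the catalytic mutant had 3 higher and 0 lower (Lmnb1, Lbr and Tmpo), against 11.6% and 9.33%, with medians of 0.17 and -0.03.

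Fewer members passed in the other comparisons. seBE against intact BE had 0 of 8 called, against 1.68% of genes higher and 2.32% lower, with 4 members at an unadjusted p under 0.05 and 3 called by DESeq2. Lmnb1, Lbr and Tmpo were those 3, at log2 -0.23 ± 0.0769, -0.19 ± 0.0679 and -0.20 ± 0.0717 by edgeR (adjusted p = 0.0851, 0.0941 and 0.0996). Rapamycin in intact BE had 1 higher and 0 lower (Sun2), against 1.98% and 1.34%. Rapamycin in seBE had 0 called by edgeR, where 0% of genes were called in either direction. At an unadjusted p under 0.05 it had 1 member (Lmna) and 493 genes, and DESeq2 called 0 members and 1 gene. Under rapamycin, seBE against intact BE had 0 higher and 1 lower (Sun2), against 2.04% and 2.66%. The difference between drug effects had 0 members called, against 0.0734% and 0.113% of genes, with 1 (Sun2) at an unadjusted p under 0.05 and by DESeq2.

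**Figure D3:**
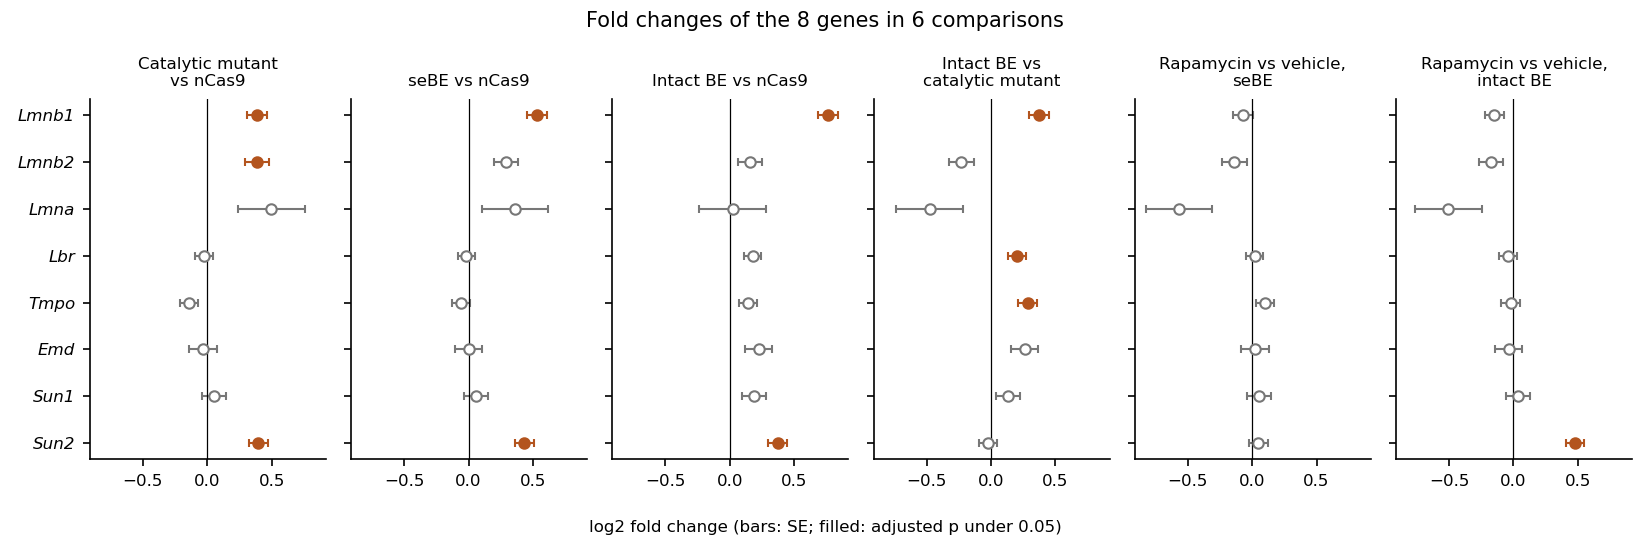
Log2 fold change with its SE for the 8 genes in 6 comparisons, filled where the adjusted p was under 0.05. Lmnb1 and Sun2 are filled in all 3 comparisons with nCas9 (0.38 to 0.76 and 0.37 to 0.43), and Sun2 is the only filled point under rapamycin.

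The members also differed from each other in how they varied over the 18 libraries. Tmpo and Lmnb2 ran opposite ways (Pearson r = -0.73, Spearman rho = -0.76), also within groups (r = -0.72). Lmnb1 and Lmnb2 were nearly unrelated (r = 0.12, rho = -0.06), and Lmnb1 and Sun2 had r = 0.67 with rho = 0.42. These are 3 of 28 pairs, over libraries that share constructs and scaling, and are given as a description. Tested genes most like a member, out of 8466 others with a symbol and at least 10 CPM, were Hnrnpm (r = 0.97), Eif4g1 (0.96) and Tpm3 (0.95) for Lmnb1 and Smchd1, Tpp2 and Fam111a (each r = 0.95) for Tmpo. For Sun2 they were the cytoskeletal genes Myh9 (0.93) and Tln1 (0.92) with Rnf44 (0.92). Lmnb2 was nearest to Ppp5c and Abcf1 (each 0.94) and Adrm1 (0.91), and Lbr to Cenpc1 and Ddx10 (each 0.90) and Lrrc58 (0.89). Likeness was lower for Emd (Heatr5b and Prep, each 0.81, Dync1li2, 0.79), Sun1 (Arrb1 and Itpr1, each 0.82, Calcoco1, 0.80) and the scarce Lmna (Txnl4a and Kifc5b, each 0.82, Apba3, 0.80).

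Around the members, 68 related genes were listed for the nuclear envelope and pore, and 67 were tested; Nup58 is listed at 0 in all libraries under the ID its older symbol gives. In intact BE against nCas9, 26 of the 67 were higher and 3 lower, against 13.1% and 9.83% of all genes, with a median log2 of 0.16 against -0.04. Nuclear pore genes made up most of the rises: 18 of 29 were higher and 0 lower, with a median of 0.31. All 3 genes of the nucleoplasmic basket, which faces the lamina, were higher, with Nup153 at 0.63 ± 0.0953 (adjusted p = 1.67e-05). Among scaffold genes of the pore's inner ring, Nup205 was at 0.59 ± 0.0778 (adjusted p = 2.32e-06), Nup188 at 0.49 ± 0.0799 and Nup93 at 0.48 ± 0.0794. Principal transcripts have 6109 bases for Nup153, 6412 for Nup205, 5710 for Nup188 and 2928 for Nup93. The slope on transcript length differed between intact BE and nCas9, and its part in these pore counts is not given here. Of the 38 genes outside the pore, 8 were higher and 3 lower, with a median of 0.04, and the share lower was near that of all genes. Those 3 were Chmp2a, a subunit of the ESCRT machinery that seals the envelope, at -0.49 ± 0.0717, the torsin gene Tor1b at -0.44 ± 0.084 and the LEM domain gene Lemd2 at -0.42 ± 0.104.

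With the other constructs fewer related genes passed, and fewer of all genes did. seBE against nCas9 had 9 of 67 higher and 1 lower, where 2.64% and 1.93% of all genes were, with 8 of the 9 in the pore and Nup205 at 0.34 ± 0.0778, Nup93 at 0.34 ± 0.0795 and Nup214 at 0.30 ± 0.0815. The rise outside the pore was Cbx3, which encodes a form of the heterochromatin protein HP1, at 0.41 ± 0.0965, and Chmp2a was lower at -0.27 ± 0.0714. That count was 0 without seBE library 1, 1 without seBE library 3 or nCas9 library 2, and 3 without nCas9 library 1. The catalytic mutant had 3 higher and 0 lower, where 2.24% and 2.06% of all genes were: Pom121 at 0.50 ± 0.095, Nup188 at 0.36 ± 0.0801 and Nup214 at 0.29 ± 0.0817, and 1 without nCas9 library 2.

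Intact BE against the mutant had 19 related genes higher and 5 lower, against 11.6% and 9.33% of all genes, and 11 and 1 with the length and GC trend removed. Leading rises were Zmpste24, the protease that matures prelamin A, at 0.63 ± 0.0947 (adjusted p = 3.71e-05), the HP1 gene Cbx5 at 0.51 ± 0.0751, Nup160 at 0.55 ± 0.104 and Nup205 at 0.47 ± 0.0778. The lower genes were led by Chmp2a at -0.34 ± 0.072 (adjusted p = 0.000829), Prr14, which encodes a tether of HP1 to the lamina, at -0.36 ± 0.0817, Lemd2 at -0.45 ± 0.105 and Tor1b at -0.34 ± 0.0844. seBE against intact BE had Tor1b higher (0.30 ± 0.0842) and Cbx5, Nup160 and Tpr lower (-0.32, -0.39 and -0.35), where 1.68% and 2.32% of all genes were, a count of 4 that ran from 0 to 13 over the alternatives. It was 0 without intact BE library 1 or seBE library 2, and 2 without seBE library 1 or intact BE libraries 2 or 3.

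Rapamycin in intact BE had 0 related genes higher and 3 lower, against 1.98% and 1.34% of all genes, and all 3 were of the pore: Aaas at -0.39 ± 0.0856 (adjusted p = 0.00512), Nup107 at -0.29 ± 0.0754 and Nup37 at -0.34 ± 0.0966. That count was 0 without intact BE library 1 under rapamycin or library 3 under vehicle, and 1 without library 2 under vehicle. None passed in seBE by edgeR, with 2 at an unadjusted p under 0.05 and 0 by DESeq2. Under rapamycin seBE exceeded intact BE in Aaas (0.35 ± 0.0852) and Nup85 (0.26 ± 0.0729), where 2.04% of all genes were higher, a count that was 8 without seBE library 3, 0 without intact BE library 1, and 1 without intact BE library 3 or seBE libraries 1 or 2. The difference between drug effects had 0 related genes by edgeR and by DESeq2, and 6 at an unadjusted p under 0.05.

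**Figure D4:**
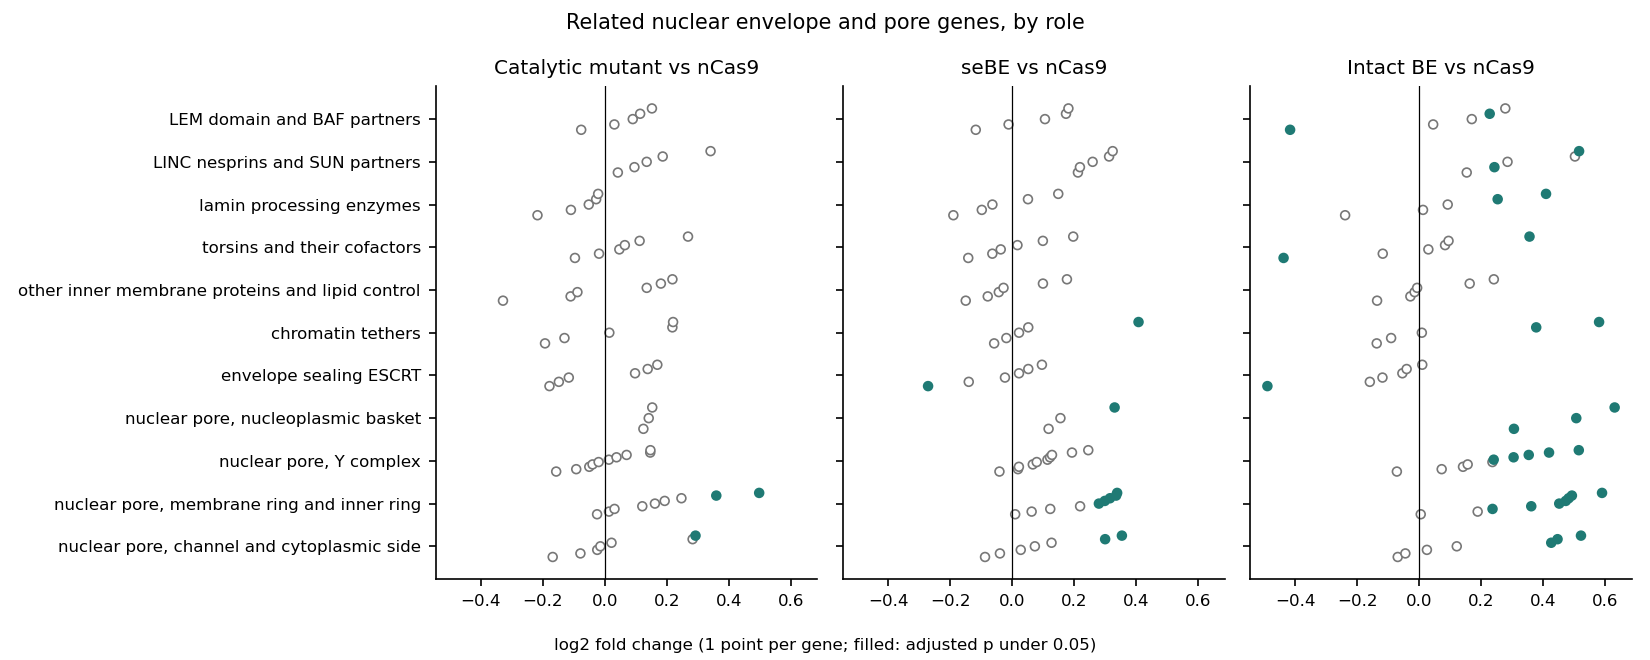
Log2 fold change of 67 related genes in 3 comparisons with nCas9, 1 point per gene in rows by role, filled where the adjusted p was under 0.05. Filled points number 29 for intact BE, 10 for seBE and 3 for the catalytic mutant.

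Cell cycle genes moved with several of these differences. For intact BE against nCas9, 12 of 15 listed genes of S phase passed upward and 0 downward (median log2 0.34), as did 10 and 0 of 15 genes of G2 and mitosis (median 0.26), against 13.1% and 9.83% of all genes and their median of -0.04. In the catalytic mutant these counts were 1 and 0 (median 0.13) and 1 and 1 (median 0.02), against 2.24% and 2.06% of all genes, while Lmnb1, Lmnb2 and Sun2 were higher. In intact BE against the mutant 8 S phase genes and 9 of G2 and mitosis were higher, against 11.6% of all genes. Lmnb1, Tmpo and Lbr were higher there too. For seBE against nCas9, 3 S phase genes and 2 of G2 and mitosis were higher (medians 0.20 and 0.08), against 2.64% of all genes. None were lower, and Lmnb1 and Sun2 were higher. For seBE against intact BE, 2 and 2 were lower (medians -0.18 and -0.14), against 2.32% of all genes, with 0 members called. Under rapamycin in intact BE, 2 S phase genes were lower and 0 higher, against 1.34% and 1.98% of all genes, and 0 of G2 and mitosis passed, while Sun2 was higher. The part of cell cycle genes in the members' levels was not tested.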

How the data were processed

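The members and lists were chosen with earlier results of these data known. The deposited values are whole-number, unnormalized counts of reads for each gene. Per the submitters' processing notes, the authors trimmed reads with fastp 1.0.1, aligned them with STAR 2.7.1a to GRCm39, used SAMtools 1.9 and counted with featureCounts (Subread 2.0.3). The sources used here do not give the annotation release or the strand and multi-mapping settings. Lbr, Tmpo, Sun1 and Sun2 share 440, 244, 302 and 147 exon bases with genes on the other strand. If strand was not used in counting, reads in those bases cannot be told apart. Over the 18 libraries the gene on the other strand had 1075 counts for Lbr, 0 for Sun1 and 710 for Sun2. For Tmpo no count was found. Emd shares 343 exon bases with a pseudogene on its own strand, which had 0 counts. Lbr shares 69 with an rRNA gene on its own strand, for which no count was found. Symbols matched 52073 of 56748 IDs, 1 listed gene through an older symbol.

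Genes were kept by filterByExpr (14985, with 99.935% of counts). All 18 libraries, 13835979 to 23284932 counts each, entered 1 fit of 6 group means with edgeR 4.0.16 in R 4.3.3 (TMM factors, robust quasi-likelihood F tests, Benjamini-Hochberg over all genes tested, threshold 0.05) for 9 comparisons. SE is the log2 fold change over the square root of F. Levels are CPM. Likeness used log2 CPM with a prior count of 2. Lengths came from GENCODE M21 principal transcripts, the longest where none is marked. Named related genes were up to 4 per direction and comparison, by adjusted p. The procedure was tested on simulated data. Alternatives were DESeq2 1.42.0, RLE factors, 2 other filters, the compared libraries alone, a replicate block, removal of a spline trend (4 degrees of freedom) on length and GC content, the same with the block, thinning to equal depth, and leaving out each library. P-values set a difference against the spread between these libraries, which may be technical. Of the listed markers of other cell types, 1 is not reported here.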

Additional observations from a re-analysis of the deposited data

How the results depend on the processing

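The 4 calls of Lmnb1 and that of Sun2 under rapamycin in intact BE kept their side of the threshold in each alternative run. Over single-member values, 1014 kept direction and call, 38 gained a call and 14 lost one. Another 61 changed sign with no call before or after, among them Lmnb2 in intact BE against the mutant (-0.23, and 0.01 with the trend removed). Sun2 in that comparison turned from -0.02 to 0.16 with the trend removed, with a call only when the block was added (adjusted p = 0.0476). Pairing of libraries by replicate number was not found at the cutoff used, which cannot exclude it. Same-numbered deviations correlated at -0.0692 to 0.115 over all pairs of groups, and in no pair of groups were all 3 over 0.1. The mitochondrial share, however, ran in like order in seBE under vehicle (2.66, 4.10 and 2.80%) and rapamycin (2.99, 4.61 and 3.15%). The mutant had that order too, while in nCas9 and both intact BE groups the share fell from library 1 to library 3. The replicate block is given here. Members called were 4 for intact BE against nCas9 with the replicate block, the length and GC trend removed, or both, in place of 2. For the mutant they were 1 with the trend removed, in place of 3. For seBE against nCas9, Lmnb2 gained a call without a filter, with the block, the block and trend, thinning, or the compared libraries alone. For seBE against intact BE, in place of 0, members called were 3 by DESeq2 and 1 with the trend. They were 2 with the block, the block and trend, or the compared libraries alone. Under rapamycin that comparison had 3 with block and trend, in place of 1. The difference between drug effects had 1 (Sun2) by DESeq2, without a filter, with block, trend or both, and 0 to 1 leaving out a library, in place of 0. Related genes called for the mutant against nCas9 were 6 with the block and 8 with block and trend, and 1 to 4 leaving out a library, in place of 3. For intact BE against the mutant they were 12 with the trend and 15 with both, in place of 24. For seBE against nCas9 they were 6 with the trend and 0 to 9 leaving out a library, in place of 10. For seBE against intact BE, in place of 4, they were 9 by DESeq2 and with the block, 8 without a filter, 1 with the trend, 7 with both, 13 with the compared libraries alone and 0 to 3 leaving out a library. Rapamycin in intact BE had 5 by DESeq2, with the block or alone, 9 with block and trend, and 0 to 3 leaving out a library, in place of 3. For seBE against intact BE under rapamycin they were 4 with the block, 1 alone and 0 to 8 leaving out a library, in place of 2. The cause of these shifts was not tested. Scaling moved the median of all genes by less than 0.02 on the log2 scale.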
